A study of Mus musculus with 6 samples.

Results

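The cytoplasmic ribosomal protein genes encode the proteins of the ribosomes that translate nuclear mRNA. They were taken by symbol, as Rpl, Rps or Rplp followed by a number, plus Rpsa, with pseudogenes and the Rps6k kinases left out. That gave 82 genes of the 14455 gene symbols listed, 49 of the large and 33 of the small subunit. All 82 were listed in all 4 RNA libraries. LSK cells were sorted from the bone marrow of C57BL/6 mice. They are Lin-, c-Kit+ and Sca-1+ and include the hematopoietic stem cells and early progenitors. Setd2, which encodes the enzyme that trimethylates lysine 36 of histone H3, was either intact (WT) or deleted by a conditional knockout (KO). Cells came from mice labelled 4 weeks (young) or 8 months (old) after the induction with pI-pC, a double-stranded RNA, and the age label is the same for WT and KO. Each genotype had 1 total RNA library at each age, so no value below has an SD, a p-value or a replicate check. The sources used here do not name the driver of the deletion or the number of mice behind a library.

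A ribosome consists of a large and a small subunit, each built from ribosomal RNA and many different proteins that are each present in about equal number. The mRNAs of these proteins are among the most abundant of a growing cell, and most begin with a run of pyrimidines, the TOP motif, through which mTORC1 sets how much they are translated. Blood formation is sensitive to their dose: mutations of single ribosomal protein genes cause Diamond-Blackfan anemia, and loss of RPS14 contributes to the anemia of the 5q- syndrome.

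Values are FPKM, fragments per kilobase of transcript relative to the total of the library, scaled between libraries by 1 factor each. The scaling serves comparison between libraries. Comparison between genes rests on the length correction of FPKM alone, and reads that may be shared with pseudogenes or overlapping genes limit it. Each library's value is given in the order WT young, KO young, WT old, KO old unless named. Differences are of log2(scaled FPKM + 1). A gene counted as measured in a comparison when it reached a scaled FPKM of 1 in at least 1 of the pair of libraries, and the thresholds were a log2 difference of 0.32 in either direction, which is 25% higher or 20% lower on the scale of FPKM + 1, and 2-fold. Setd2 itself stood at 14.1, 12.4, 15.3 and 15.5, a gene-level value that includes RNA outside the deleted exons and does not check the labels. The files listed 13173 to 13318 symbols, none under an FPKM of 0.5. Judged by how low values are spaced, a 1 kb transcript at a scaled FPKM of 10 had a counting error of 9.91%, 10.6%, 7.55% and 7.52%. That error rests on how a counted unit was read from the spacing, and it is larger for shorter transcripts. All 8 LSK markers, Kit and Ly6a (Sca-1) among them, were listed in all 4 libraries. Other cell types' markers were not even: 8 plasma cell markers summed to 43.8, 58.6, 2170 and 206, with Tnfrsf17 and Prdm1 unlisted in both young libraries and Derl3 in young WT.

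The ribosomal protein genes spanned 822-fold to 1252-fold in listed level within each library, and 540-fold to 1017-fold without Rpl9, the lowest. Among the highest by their mean were Rpl4, Rpsa, Rplp1 and Rpl13a. Rpsa, the laminin receptor homolog of the small subunit, stood at 820, 823, 809 and 875. Rpl4, a core protein of the large subunit, was at 669, 664, 1032 and 963. Rpl13a, which also binds mRNAs of inflammatory genes, was at 465, 557, 776 and 993. The 5 lowest were Rpl9, Rps13, Rpl36a, Rpl11 and Rps27. Rpl9 was at 0.998, 0.970, 0.825 and 1.12, and Rpl11, which binds Mdm2 when ribosome assembly is disturbed, was at 2.70, 2.46, 1.86 and 2.63. Rpl9 and Rps27 have listed copies that hold nearly all of the sum of parent and copy, as given further on, so their own values are uncertain. RefSeq also names 5 pseudogenes after Rps13 and 3 after Rpl36a, though no copy of either was listed, so these low values are uncertain too.

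The order of the genes was nearly the same in every library. Across the 82 genes, log2 levels of WT and KO had a Pearson r of 0.996 in young and 0.995 in old cells, and the pairs across age had 0.957 to 0.962. Genes are not independent replicates, and the same transcript lengths and copies enter every library. The median absolute log2 difference of a gene was 0.14 between young WT and young KO, 0.19 between old WT and old KO, and 0.52 to 0.65 between a young and an old library. The listed FPKM of the 82 was concentrated in few genes: the 10 highest held 61.2%, 62.3%, 58% and 59.1% of their sum. Listed copies do not enter this sum, and 8 of 16 stood above their parent in all 4 libraries. How far the concentration depends on the assignment of reads to copies was not tested. The median member was at 22.3, 22.5, 38.7 and 41.9, and 23, 23, 15 and 14 members lay below 10. Small subunit genes had the higher median level in all 4 libraries, 36.4, 42.4, 51.4 and 67.3 against 19.7, 21.0, 33.4 and 36.0 for the large subunit. The large subunit nevertheless held 53.2%, 54.5%, 52.4% and 50.6% of the sum, with more genes.

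**Figure D1:**
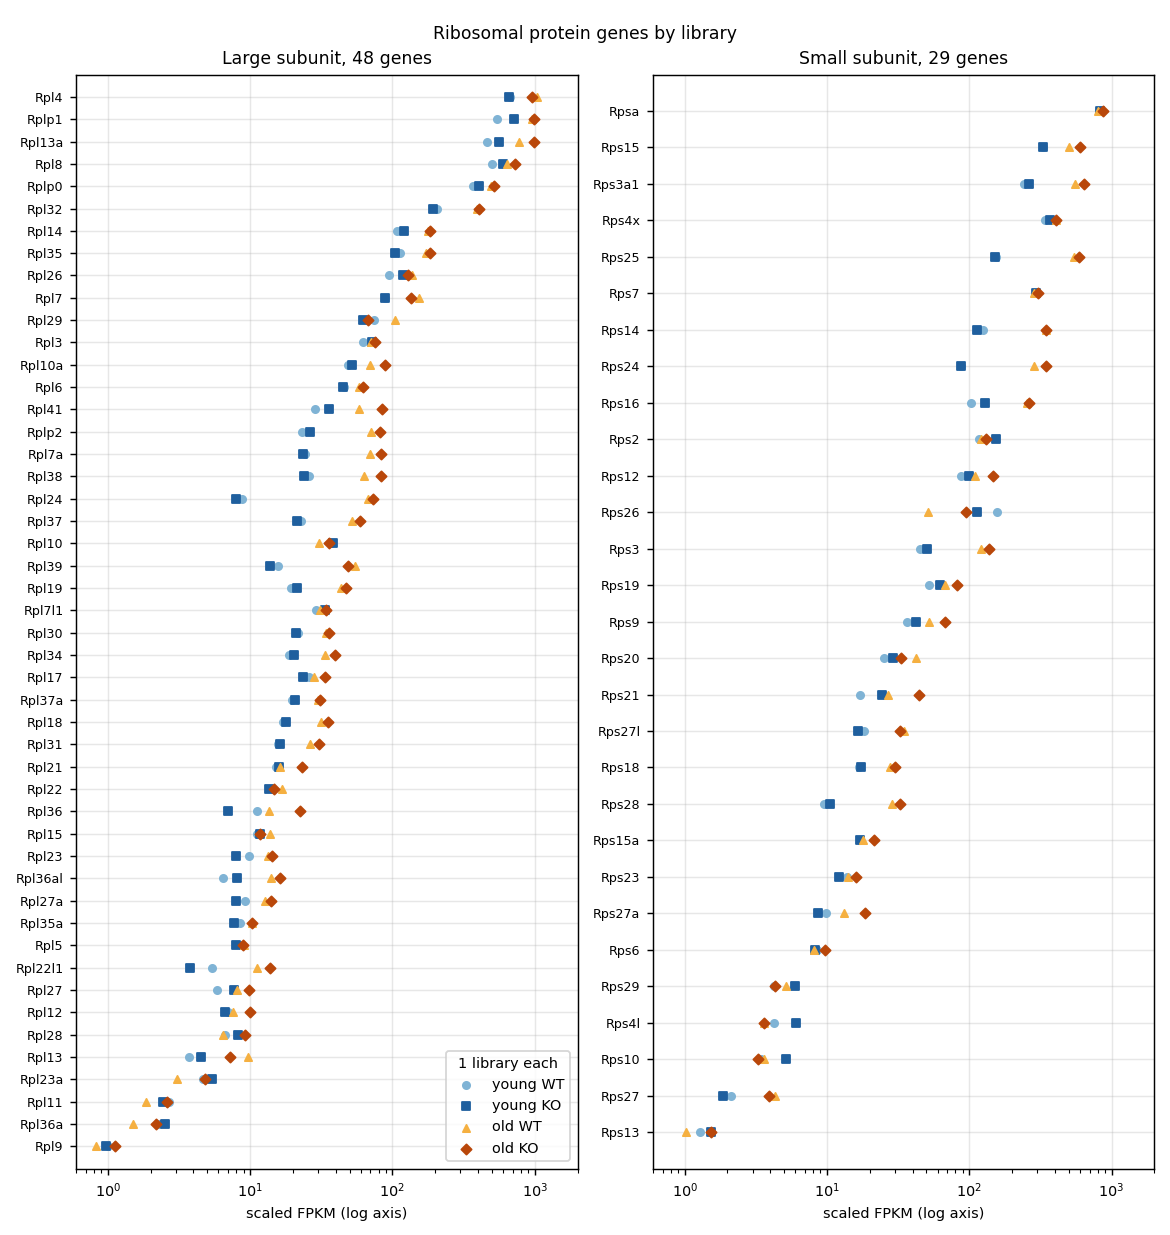
Scaled FPKM (log axis) of 48 large and 29 small subunit genes, 1 point per library, ordered by mean level. The young and old symbols separate for many genes of the middle of the range, such as Rpl24, while WT and KO of the same age lie close together.

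Summed over the 82 genes, the scaled FPKM was 8381, 8935, 12387 and 13738, so the old libraries were above the young ones. As a share of all FPKM listed, the genes held 3.84%, 3.70%, 3.92% and 5.16%, where only old KO stands apart. The shares depend on what else is in the library: antigen receptor segments, those of immunoglobulins and T cell receptors, took 0.640%, 0.890%, 26.8% and 4.67% of all FPKM. Gm26917 and Gm42418, a pair of predicted genes, took 18.3%, 25.5%, 12.4% and 17.8%. With antigen receptor, predicted and mitochondrially encoded genes left out, the share was 5.13%, 5.42%, 7% and 7.25%, and both old libraries were then above both young ones. In bulk RNA of sorted cells, fewer cells of a type and less RNA per cell cannot be told apart.

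In young cells, KO and WT differed little. The median difference of KO minus WT was 0.06 over the 81 genes measured, where all 12409 genes measured had 0.00. KO was above WT for 50 of 81 genes, where 50.5% of all genes were. A total of 8 genes were at least 0.32 higher (9.88%, against 12.1% of all genes) and 3 at least 0.32 lower (3.70%, against 12.4%). None reached 2-fold, which 1.02% of all genes did upward and 0.701% downward. The share of genes past 0.32 was thus no larger than among genes at large in either direction. With FPKM as deposited, without scaling, the median was -0.06, where that of all genes was -0.10, and 3 genes were higher and 5 lower by 0.32.

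The 5 largest positive differences in young cells, among genes at a level of 5 or more in the higher library of the pair, were those of Rps21, Rps10, Rps4l, Rplp1 and Rps2. Rps21, which encodes a small subunit protein, was at 17.0 in WT and 24.3 in KO, a difference of 0.50. Rps10, a Diamond-Blackfan gene, was at 3.42 and 5.15 (0.48), and Rps4l, a paralog of Rps4x, at 4.25 and 6.05 (0.43). Both reached 5 only in KO, and so passed the limit only through the higher library. At such low levels the counting error alone is above the 9.91% to 10.6% given for a level of 10. Rplp1, an acidic protein of the stalk that recruits elongation factors, was at 543 and 721 (0.41), at a level where the counting error of a 1 kb transcript is under 3.36%. Rps2, which sits near the mRNA channel of the small subunit, was at 117 and 155 (0.40). Rps29 (0.40) and Rpl27 (0.33) were also past 0.32.

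The 5 largest negative differences were those of Rpl36, Rps26, Rpl22l1, Rpl23 and Rpl29. Of these 5, 4 encode large subunit proteins, as do 48 of the 81 genes measured. Rpl36 (ENSMUSG00000057863, chromosome 17, 56613395 to 56614243, mm10) was at 11.2 in WT and 6.98 in KO of young mice, a difference of -0.61. Rps26 (ENSMUSG00000025362, chromosome 10, 128624530 to 128626506), a small subunit protein that contacts the mRNA at the exit channel, was at 156 and 114 (-0.45). Rpl22l1 was at 5.36 and 3.76 (-0.42), and it reached 5 only in WT, so it passed the limit only through the higher library. Rpl23, another binder of Mdm2, was at 9.77 and 7.96 (-0.27), and Rpl29 at 74.6 and 62.5 (-0.25), neither of which reached 0.32.

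By subunit, the median KO minus WT difference in young cells was 0.04 for 48 large and 0.10 for 33 small subunit genes. At least 0.32 higher were 18.2% of small and 4.17% of large subunit genes, against 12.1% of all genes. Small subunit genes made up 6 of these 8, Rps21, Rps10, Rps4l, Rps2 and Rps29 among them. Rps10, Rps4l and Rps29 stood at only 5.15, 6.05 and 5.96 in KO, their higher library. With a limit of 10 on the level, 4 members were left at least 0.32 higher. KO was above WT for 24 of 33 small (72.7%) and 26 of 48 large subunit genes (54.2%), against 50.5% of all genes. All 3 stalk genes were above WT in KO, Rplp0 by 0.15, Rplp1 by 0.41 and Rplp2 by 0.17. Erythroid markers, 10 of 10 listed in both libraries, summed to 262 in WT and 621 in KO of young mice, and their part in these differences was not tested.

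In old cells, KO was above WT for most of the genes, by small amounts. The median difference was 0.14 over 82 genes against 0.00 over 12478, and 64 of 82 were above 0 where 50.3% of all genes were. At least 0.32 higher were 18 genes (22%, against 14.7%), and 3 were at least 0.32 lower (3.66%, against 15.4%). No gene reached 2-fold, against 1.63% upward and 2.66% downward. The large subunit had a median of 0.14 and the small subunit 0.13.

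Other abundant genes with a short locus were shifted in the same direction. Of 354 other genes with a mean scaled FPKM of 20 or more and a locus under 6 kb, 76.3% were above 0 and 31.1% at least 0.32 higher in the same comparison, with a median of 0.18. That group leaves out predicted, antigen receptor and mitochondrially encoded genes. With them in it, 530 genes had a median of 0.10, with 59.8% above 0 and 24% at least 0.32 higher. Both reference groups were chosen after the data were seen. Neutrophil markers summed to 42 in WT and 361 in KO of old mice and monocyte markers to 82.5 and 357, while plasma cell markers summed to 2170 and 206. All 8 neutrophil and all 8 plasma cell markers were listed in both, and of the 8 monocyte markers Adgre1 was unlisted in old WT. Their part in the shift was not tested.

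With the same limit, the 5 largest positive differences in old cells were those of Rps26, Rps21, Rpl36, Rpl41 and Rpl21. Rps26 was at 51.4 in WT and 94.2 in KO of old mice (0.86), Rps21 at 26.8 and 44.6 (0.71), and Rpl36 at 13.5 and 22.4 (0.69). Rpl41, which encodes the shortest protein of the ribosome, was at 57.9 and 84.1 (0.53), and Rpl21 at 16.1 and 23.3 (0.51). Rpl23a, below 5 in both libraries, had 0.53 and would rank ahead of Rpl21 without the limit, and Rpl36a (0.35), Rpl11 (0.34) and Rps13 (0.32) lay lower still. Others of the higher genes, Rps27a, Rpl28, Rps12, Rpl38, Rps9, Rpl12, Rpl13a and Rpl10a, had differences of 0.35 to 0.46.

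The 5 largest negative ones were those of Rpl29, Rpl13, Rps20, Rpl15 and Rps29. Rpl29 (ENSMUSG00000048758, chromosome 9, 106429454 to 106431568) was at 104 in WT and 66.9 in KO of old mice, a difference of -0.63. Rpl13 was at 9.63 and 7.20 (-0.37) and Rps20 at 42.5 and 33.1 (-0.35). Rpl15 (-0.21) and Rps29 (-0.21) did not reach 0.32. Rps29, at 5.16 in WT and 4.32 in KO, passed the limit only through the higher library. Rpl29 was below WT in KO at both ages, by 0.25 in young and 0.63 in old cells.

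The KO differences of young and old cells, which share no library, were not alike across the 81 genes measured at both ages (Pearson r -0.08, Spearman rho 0.01, across genes). Over all 11873 genes measured at both ages, r was -0.02 and rho 0.02. KO was above WT at both ages for 40 members (49.4%, against 26.2% of all genes) and below at both for 8 (9.88%, against 25.3%). For 23 (28.4%, against 24.3%) it was below in young and above in old cells, and for 10 (12.3%, against 24.2%) the reverse. Among the 354 other abundant genes with a short locus, 40.1% were above at both ages and 9.89% below at both. Rps21 was the only member at least 0.32 higher in KO at both ages (1.23%, against 2.13%). Rps26 and Rpl36 were past 0.32 in opposite directions, lower in young KO and higher in old KO, which 2.27% of all genes were. Whether the KO difference changes with age was not tested, with 1 library per group. The stretches before the start sites of Rps21 and Rps26 are given here because these small subunit genes carry the largest positive KO differences and behave differently in young cells. Each runs from 150 bases before to 12 bases after the RefSeq start nearest the locus in the files (GRCm38.p6), and capitals mark CCGGAAG, the core bound by ETS factors such as GABP.
Rps21: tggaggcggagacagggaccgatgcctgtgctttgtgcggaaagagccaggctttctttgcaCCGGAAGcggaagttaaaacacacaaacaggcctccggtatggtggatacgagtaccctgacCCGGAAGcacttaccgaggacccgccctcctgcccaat
Rps26: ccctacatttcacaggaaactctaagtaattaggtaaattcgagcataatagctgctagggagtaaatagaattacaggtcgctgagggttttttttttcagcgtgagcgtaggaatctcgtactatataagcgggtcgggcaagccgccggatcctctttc
Rps21 (chr2:180257229-180257390, plus strand) holds the letters at 2 places. Rps26 (chr10:128626495-128626656, minus strand) holds none in the printed stretch, and a match farther out in the 300-base window.

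**Figure D2:**
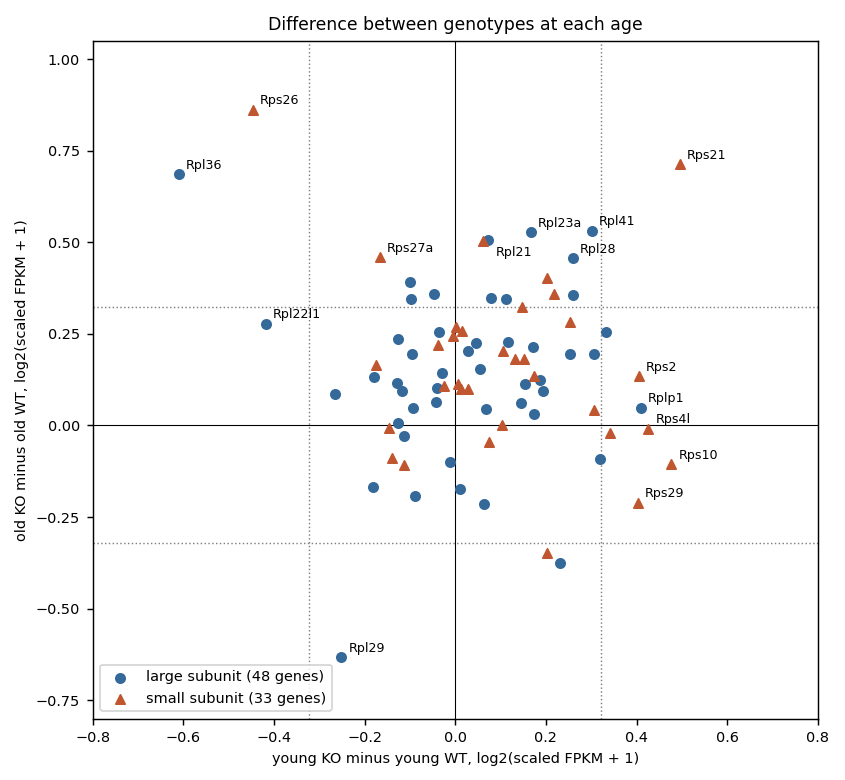
KO minus WT difference of each of the 81 genes measured at both ages, young cells on the x axis and old cells on the y axis, in log2(scaled FPKM + 1). Dotted lines mark 0.32. Most points lie above 0 on the y axis, and Rps26 and Rpl36 lie at the upper left, Rps21 at the upper right and Rpl29 at the bottom.

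Rps26 also has a listed copy, a pseudogene named after it. Rps26-ps1 (chromosome 8, 107439176 to 107439585) was listed at 277, 237, 277 and 444, above Rps26 in every library. The copy was lower in young KO than young WT by 0.22 and higher in old KO than old WT by 0.68, the directions of the parent. The sum of parent and copy was 433, 352, 328 and 538. Rpl36-ps3 likewise stood at 2.81, 1.47, 1.78 and 3.09, with KO minus WT differences of -0.63 in young and 0.56 in old cells against -0.61 and 0.69 for Rpl36. Reads shared between such copies were not separated here, so parent and copy are not independent measurements.

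Between the ages, the ribosomal protein genes were higher in old than in young cells in both genotypes. In WT the median of old minus young was 0.50 over 81 genes (all 12569 genes: -0.01), and 68 were above 0 against 49.2% of all genes. A total of 51 (63.0%) were at least 0.32 higher, against 20.2%, and 5 (6.17%) lower, against 17.4%. At least 2-fold higher were 16 (19.8%), against 4.22%, and 1 was at least 2-fold lower, Rps26, against 1.33%. In KO the median was 0.54 over 82 genes (all 12534 genes: -0.00), with 71 above 0 against 49.8%. At least 0.32 higher were 52 (63.4%), against 23.4%, and 4 (4.88%) were lower, against 20.4%. At least 2-fold higher were 19 (23.2%), against 4.95%, and none was at least 2-fold lower, against 2.24%.

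Age cannot be told apart from other differences between the young and old libraries. Xist was unlisted in both young libraries and at 291 and 279 in the old ones, while the Y-linked Ddx3y was at 5.25 and 6.73 in young and unlisted in old, so sex went with age. The low values of young and old libraries were also spaced differently, with 1.39% and 1.06% odd multiples of the smallest step in young and 53.0% and 57.8% in old. Plasma cell markers were higher in both old libraries, as given above, and neutrophil markers went from 3.77 and 8.09 in young to 42 and 361 in old WT and KO. Of the 8 neutrophil markers Camp, Ltf, Ngp and S100a9 were unlisted in both young libraries, and Mmp8 and Retnlg also in young WT. Their part in the age differences was not tested.

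Abundant genes outside the family were higher in the old libraries too when their locus was short. The 354 other genes at a mean of 20 or more with a locus under 6 kb had medians of 0.26 in WT and 0.37 in KO, with 44.9% and 53.4% at least 0.32 higher and 10.2% and 18.4% at least 2-fold higher. With predicted, antigen receptor and mitochondrially encoded genes kept in, the 530 genes of that kind had medians of 0.46 and 0.53, with 56.2% and 60.1% at least 0.32 higher and 29.6% and 30.1% at least 2-fold higher. The ribosomal protein genes had the higher medians against the first group. Against the second their medians were close, and a smaller share of them was past 2-fold. Without a limit on locus length, 1973 other genes at a mean of 20 or more had medians of 0.05 and 0.12.

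**Figure D3:**
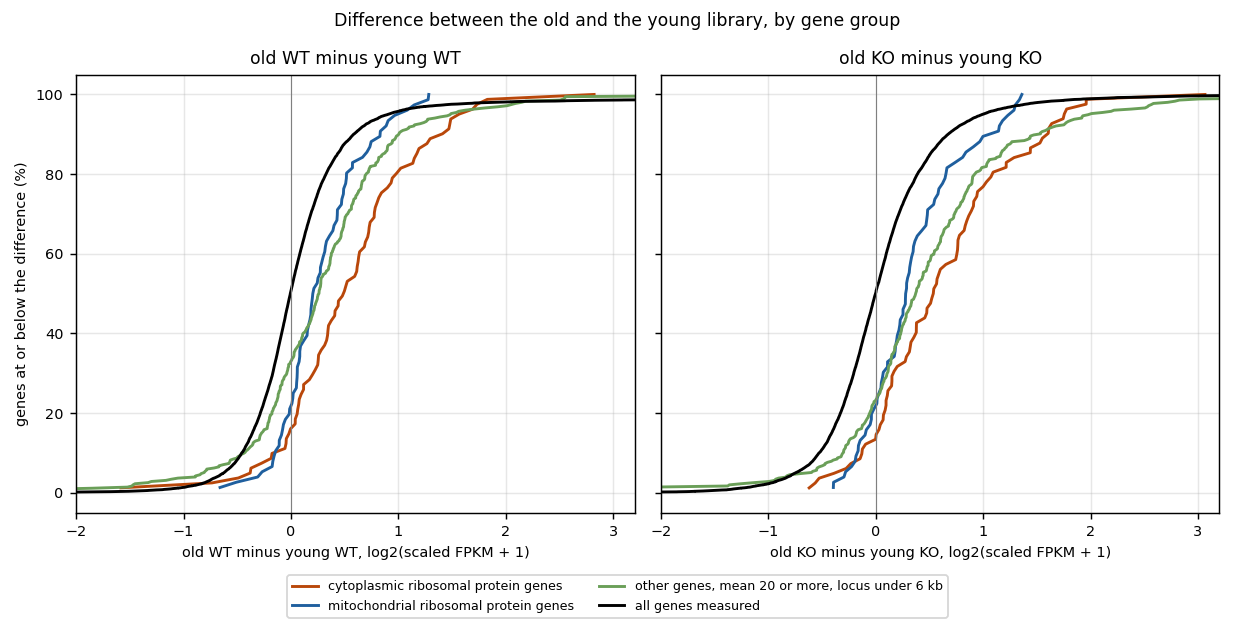
Cumulative percent of genes at or below each difference of old minus young, log2(scaled FPKM + 1), for WT (left) and KO (right). The curve of the cytoplasmic ribosomal protein genes lies, over most of the range, to the right of those of the mitochondrial ribosomal protein genes, of all genes and of the 354 other abundant genes with a short locus.

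The old minus young differences of WT and KO, which share no library, were also set side by side. Across 81 members they correlated with Pearson's r at 0.87 and Spearman's rho at 0.87, and 73 (90.1%) had the same sign. All 12089 genes measured in both had r at 0.55 and rho at 0.47, with 67.2% of the same sign, and the 354 other abundant genes with a short locus had 0.77 and 0.76, with 79.4%. The sex and the spacing of values that go with age are the same in both genotypes, and their part in this likeness was not tested. Both old libraries were above both young ones for 62 of 82 genes, against 26.8% of all genes, and at least 0.32 above for 40, against 8.63%. Both old libraries were below both young ones for 6, against 26.5%, and Rpl10, Rpl36a, Rps26 and Rps4l were among these. At least 2-fold higher in old cells of both genotypes were 14 of 81 genes, against 2.22%. They were Rpl7a, Rpl19, Rpl24, Rpl37, Rpl38, Rpl39 and Rplp2 of the large subunit and Rps3, Rps3a1, Rps14, Rps16, Rps24, Rps25 and Rps28 of the small one.

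Rpl24 had the largest difference. It stood at 8.74, 7.91, 67.9 and 73.6, which is 7.77-fold higher in old WT and 9.31-fold higher in old KO. Rpl24 (ENSMUSG00000098274, chromosome 16, 55966275 to 55971435), a large subunit protein at the face where the subunits meet, shares 98.7% of its locus with the predicted gene Gm28037. Gm28037 was listed at 20.2, 21.4, 3.82 and 27.5, so it was low in old WT but not in old KO. How reads were divided between this pair was not tested, and the value of Rpl24 is uncertain for that reason.

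Rps25 (ENSMUSG00000009927, chromosome 9, 44407714 to 44410405), a small subunit protein that some viral mRNAs need for initiation, was at 153, 151, 547 and 589, 3.57-fold and 3.91-fold higher in the old libraries. Rps24, a Diamond-Blackfan gene, was at 87.9, 87.9, 286 and 345. Rps14, the gene of the 5q- syndrome, was at 125, 113, 347 and 346, and each of these 3 genes had old libraries far above young ones at levels where counting error is small. Rpl39, a short protein of the exit tunnel, was at 15.8, 13.8, 54.7 and 48.5. Rplp2, the partner of Rplp1 in the stalk, was at 23.3, 26.4, 70.9 and 82.4, and Rpl7a at 24.2, 23.5, 69.5 and 83.2. Rps3, which also acts in DNA repair, was at 45.1, 50.2, 122 and 138. None of these 7 genes had a young value above an old one. The stretches before the starts of Rpl24 and Rps25, the genes with the largest old minus young differences, read as follows, with capitals marking CCGGAAG.
Rpl24: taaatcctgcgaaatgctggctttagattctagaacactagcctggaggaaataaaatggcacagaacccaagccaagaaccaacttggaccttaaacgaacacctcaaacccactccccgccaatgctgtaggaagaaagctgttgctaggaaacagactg
Rps25: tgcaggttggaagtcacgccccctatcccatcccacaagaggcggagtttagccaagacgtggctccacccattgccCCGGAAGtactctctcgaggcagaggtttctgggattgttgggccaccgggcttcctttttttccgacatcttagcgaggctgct
Rpl24 (chr16:55966125-55966286, plus strand) holds none of the letters and Rps25 (chr9:44407564-44407725, plus strand) holds them at 1 place.

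Other 2-fold differences appeared in 1 genotype only by the threshold. In WT these were Rpl13 (1.17, against 0.57 in KO) and Rpl36al (1.02, against 0.91). In KO they included Rpl22l1 (1.64, against 0.94 in WT), Rpl36 (1.55, against 0.26), Rpl41 (1.21, against 0.98) and Rpl32 (1.07, against 0.93). Whether the genotypes differ in these age differences was not tested. Each gene named here was higher in old than in young cells of both genotypes.

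A few genes went the other way. Rps26 was at 156 in young and 51.4 in old WT, a difference of -1.58, and at 114 and 94.2 in KO (-0.28). Its copy Rps26-ps1 was at 277 in both WT libraries (-0.00) and at 237 and 444 in KO (0.90), so parent and copy did not move together between the ages. In WT, Rpl23a (-0.49), Rpl36a (-0.38) and Rpl11 (-0.37) were also at least 0.32 lower, all below a level of 6. Among those lower in KO were Rps4l (-0.62), Rps10 (-0.53) and Rps29 (-0.39), which had been among the genes higher in young KO than young WT and share that library in this comparison.

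The large subunit had medians of 0.51 in WT and 0.57 in KO and the small subunit 0.37 and 0.38 in the old minus young comparison. In WT 32 of 48 large (66.7%) and 19 of 33 small subunit genes (57.6%) were at least 0.32 higher, against 20.2% of all genes and 44.9% of the 354 other abundant genes with a short locus. In KO 34 of 49 (69.4%) and 18 of 33 (54.5%) were, against 23.4% and 53.4%. Among genes at a scaled FPKM of 10 or more the gap between the subunits in WT was 0.00. Several of the highest genes differed little between ages, among them Rpsa (-0.02 and 0.09) and Rps7 (-0.04 and 0.04). Rpl5, an Mdm2 binder like Rpl11, was at 8.69, 7.96, 9.12 and 8.92, and Rps6, the substrate of S6 kinase, at 8.53, 8.28, 8.16 and 9.66.

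The 19 genes of the family mutated in Diamond-Blackfan anemia had medians of 0.03 in young KO minus WT, 0.13 in old KO minus WT, and 0.31 in old minus young in either genotype. The corresponding medians of all 82 were 0.06, 0.14, 0.50 and 0.54. Rps19, the gene most often mutated in that anemia, was at 52.4, 62.7, 67.0 and 81.7, with KO above WT by 0.25 in young and 0.28 in old cells, below 0.32 at each age. Between old and young, 9 of the 19 (47.4%) were at least 0.32 higher in each genotype, against 20.2% of all genes in WT and 23.4% in KO. A further 2 (10.5%) were at least 0.32 lower in each, against 17.4% and 20.4%. The share at least 0.32 higher was 63.0% in WT and 63.4% in KO among all members. Among the 354 other abundant genes with a short locus it was 44.9% and 53.4%.

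Of 8 paralog names looked for, 5 were listed, each beside its parent. Paralogs are second genes for a ribosomal protein, and where their proteins replace each other the ribosome may carry either form. Rpl22 and Rpl22l1 encode such a pair, of which Rpl22 binds the pre-mRNA of Rpl22l1 and lowers its expression. Rpl22 (ENSMUSG00000028936, chromosome 4, 152325742 to 152334071) was at 14.5, 13.6, 16.8 and 14.6. Rpl22l1 (ENSMUSG00000039221, chromosome 3, 28805436 to 28807424) stood at 5.36, 3.76, 11.2 and 13.8. Its share of the pair was 26.9%, 21.6%, 40.0% and 48.6%, so both old libraries had the higher share, and the KO share was lower than WT in young and higher in old cells.

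The starts of the pair are shown because Rpl22l1 varied between the libraries and Rpl22 much less. Capitals in Rpl22 mark CTTTCC, a run like that of TOP mRNAs. In Rpl22l1 they mark the TATA box, TATAAA, on either strand.
Rpl22: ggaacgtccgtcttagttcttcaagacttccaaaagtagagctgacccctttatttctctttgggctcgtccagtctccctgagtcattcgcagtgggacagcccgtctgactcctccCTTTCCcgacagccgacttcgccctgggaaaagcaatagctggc
Rpl22l1: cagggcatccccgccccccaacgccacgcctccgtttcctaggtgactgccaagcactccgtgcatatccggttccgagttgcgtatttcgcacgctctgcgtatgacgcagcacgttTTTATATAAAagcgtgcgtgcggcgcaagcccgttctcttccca
The stretch of Rpl22 (chr4:152325576-152325737, plus strand) has CTTTCC ahead of its start and not at it. That of Rpl22l1 (chr3:28805358-28805519, plus strand) has overlapping matches to the TATA letters on both strands. Rpl22 also holds TATAAA and AAGATGGC in windows of other RefSeq starts, so the TATA letters do not set the pair apart. The starts used lie 16 bases (Rpl22) and 72 bases (Rpl22l1) from the start of the listed locus.

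Rps27 and Rps27l encode zinc finger proteins of the small subunit, and Rps27l is also known as a target of p53. Rps27l held 89.7%, 89.8%, 89.0% and 89.3% of the pair, nearly the same in each library. Rps27l was at 18.3, 16.5, 34.9 and 32.7 and Rps27 at 2.11, 1.87, 4.32 and 3.93, so both were higher in old cells. The low level of Rps27 stands beside its copy Rps27rt (chromosome 9, 114982371 to 114982740), a retrogene, at 90.7, 104, 379 and 420. Summed, Rps27 and Rps27rt stood at 92.8, 105, 383 and 424, above Rps27l in every library. The starts of Rps27 and Rps27l are shown as a pair in which only the parent holds AAGATGGC, the core bound by YY1, and CTTTCC, both in capitals.
Rps27: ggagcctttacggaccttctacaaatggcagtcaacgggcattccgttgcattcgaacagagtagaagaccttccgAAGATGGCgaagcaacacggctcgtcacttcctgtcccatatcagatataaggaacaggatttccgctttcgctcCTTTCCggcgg
Rps27l: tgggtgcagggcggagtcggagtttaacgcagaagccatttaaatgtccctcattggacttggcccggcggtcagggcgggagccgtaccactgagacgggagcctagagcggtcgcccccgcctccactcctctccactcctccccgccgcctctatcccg
Rps27 (chr3:90213637-90213798, minus strand) has both, and Rps27l (chr9:66945936-66946097, plus strand) has none of the letters searched in this stretch.

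Rpl36al, a retrogene form of Rpl36a, was at 6.41, 8.15, 14.0 and 16.2 and Rpl36a at 2.27, 2.54, 1.52 and 2.20. The paralog thus held 73.8%, 76.3%, 90.3% and 88.1%, with old above young in both genotypes. At the low level of Rpl36a the counting error is above the 7.52% to 10.6% given for a level of 10. RefSeq also names 3 pseudogenes after Rpl36a, so this share is uncertain. Rpl7l1, which acts in assembly of the large subunit, was at 29.2, 33.4, 31.2 and 34.1, while Rpl7 was at 88.5, 89.1, 153 and 136. Its share was 24.8%, 27.2%, 16.9% and 20.1%. Rps4l was a minor form beside the X-linked Rps4x, with 1.23%, 1.62%, 0.879% and 0.871% of a pair in which Rps4x stood at 342, 368, 408 and 408.

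**Figure D4:**
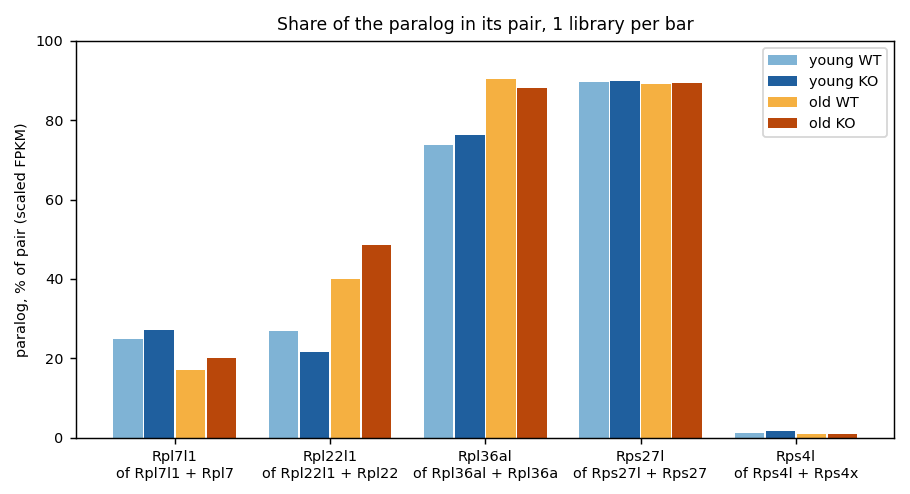
Share of the paralog in the summed scaled FPKM of paralog and parent, in percent, 1 bar per library. Rpl22l1 spans 21.6% to 48.6% and Rpl36al 73.8% to 90.3%, while Rps27l stays between 89.0% and 89.8%. Rpl36a and Rps27, the parents of Rpl36al and Rps27l, are at a low level in every library. The copy Rps27rt is not part of the pair, and the sum of Rps27 and Rps27rt lies above Rps27l in every library.

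Ribosomal protein genes have many processed pseudogenes, copies of the mRNA inserted elsewhere in the genome, and reads from one can be assigned to the other. RefSeq names 317 pseudogenes after 64 of the 82 genes, with 23 each for Rpl31 and Rps12. In the files 16 copies of 15 genes were listed, 8 of them above the parent in all 4 libraries. Rpl9-ps6 (chromosome 19, 32465885 to 32466575) stood at 235, 252, 258 and 317, beside about 1 for Rpl9, the lowest member. Rpl23a-ps3 was at 74.1, 82.9, 340 and 476 beside 4.68, 5.38, 3.04 and 4.83 for Rpl23a. Rpl27-ps3 was at 67.6, 67.2, 161 and 177 beside 5.88, 7.66, 8.11 and 9.87 for Rpl27. For these 3 genes and Rps27, the listed level of the parent is 10.2% or less of the sum with its copy.

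Copies and parents could differ in direction. Rpl23a was lower in old than young WT (-0.49), while Rpl23a-ps3 was higher (2.18). Rps12-ps3 stood at 1.59, 2.51, 40.0 and 46.9, and its parent Rps12 at 87.0, 100, 110 and 146. Rps7 and the copy listed as Gm6472, named Rps7-ps3 in RefSeq, were near each other, at 294, 297, 285 and 305 and at 296, 272, 335 and 368. Members with 3 or more named pseudogenes had a median level of 22.3 (35 genes) against 49.4 for the other 47. Their old minus young medians were 0.31 in WT and 0.33 in KO, against 0.72 and 0.78 for members with under 3. The split at 3 was chosen after the data were seen, and the part of shared reads in it was not tested.

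**Figure D5:**
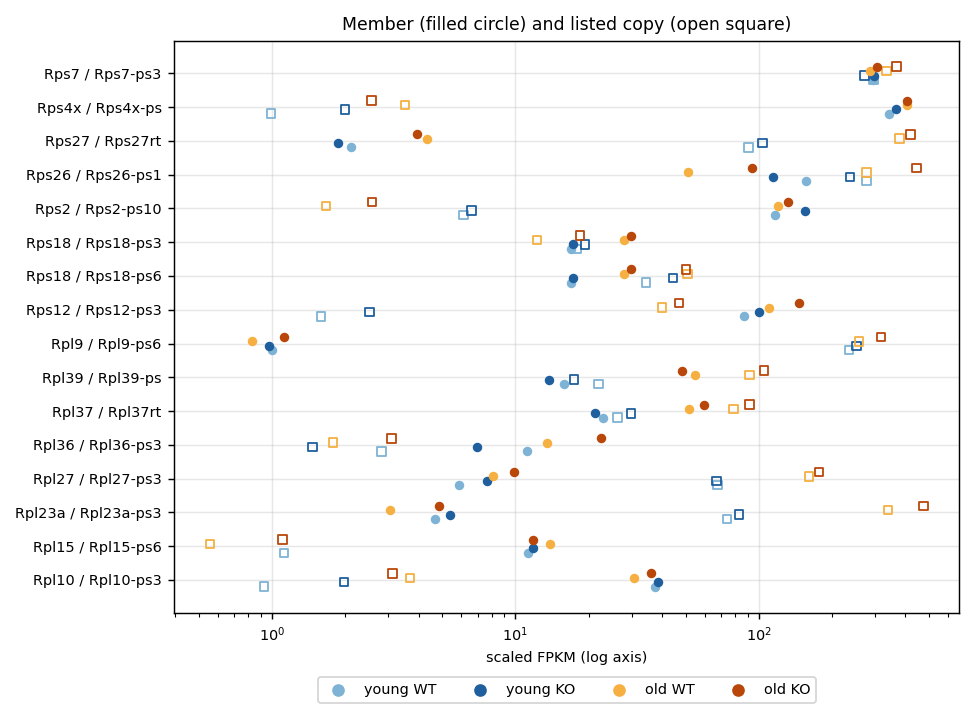
Scaled FPKM (log axis) of 15 parent genes (filled circles) and their 16 listed copies (open squares), coloured by library. Copies of Rpl9, Rps27, Rpl23a and Rpl27 lie far to the right of their parents, and those of Rps4x and Rpl10 far to the left.

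A total of 17 members overlapped another listed gene, and 2 of them over more than 50% of their locus, Rpl24 and Rps28, which shares 70.3% with Kank3. Kank3 was listed at 2.02, 1.31, 1.65 and 2.01, below Rps28 at 9.57, 10.6, 28.4 and 32.4. The sources used here do not say whether counting used strand, so such pairs may share reads.

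Ribosomal protein genes outside the symbol rule followed different courses. Fau, which encodes Rps30 fused to a ubiquitin-like protein, stood at 30.5, 32.9, 178 and 233, with old minus young differences of 2.51 and 2.79, near those of Rpl24. Gnb2l1, the scaffold protein Rack1 of the small subunit, was at 103, 131, 131 and 113, with old minus young differences of opposite sign in WT (0.34) and KO (-0.21).

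Other gene groups of translation were set beside the family. The 76 mitochondrial ribosomal protein genes, whose products build the ribosome of the mitochondrion, had medians of -0.02 in young and 0.04 in old KO minus WT, and of 0.21 in WT and 0.28 in KO for old minus young. At least 0.32 higher in the age comparisons were 29 (38.2%, against 20.2% of all genes) and 33 (43.4%, against 23.4%) of the 76, Mrpl46 among the largest with 1.28 and 1.34. The 19 other translation genes whose mRNAs carry a TOP motif had medians of 0.02, 0.06, 0.30 and 0.34 in the same order. Eef1b2 had the largest differences between the ages, 1.27 and 1.53, and Eef1a1, the main elongation factor, had 0.31 in both genotypes.

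The 40 ribosome assembly factors measured had medians of 0.06 in WT and 0.15 in KO for old minus young. At least 0.32 higher in old cells were 11 (27.5%, against 20.2% of all genes) in WT and 15 (37.5%, against 23.4%) in KO. At least 0.32 lower were 2 (5%) in each, against 17.4% of all genes in WT and 20.4% in KO. Their medians were -0.05 and 0.04 for KO minus WT in young and old cells. In young KO, 6 of the 40 (15.0%, against 12.4% of all genes) were at least 0.32 lower and none at least 0.32 higher, against 12.1%. The 6 lower ones included the snoRNP protein Nop58 at 11.4 in WT and 7.84 in KO (-0.49) and nucleolin, Ncl, at 60.2 and 43.7 (-0.45). The 21 genes of mTORC1 and of TOP regulation had medians of 0.02, 0.03, -0.02 and -0.02. Eif4e, the cap-binding factor, was the 1 gene of that list at least 2-fold higher in old cells, at 4.36, 4.72, 17.6 and 17.9. That is 4.76% of the list in each genotype, near the 4.22% of all genes in WT and 4.95% in KO. At least 0.32 higher in old cells were 2 of the 21 (9.52%, against 20.2%) in WT and 1 (4.76%, against 23.4%) in KO. In KO 1 was at least 0.32 lower (4.76%, against 20.4%). Mtor, Larp1 and Myc lay within 0.23 of 0 in each of the 4 comparisons.

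Start sites were found in RefSeq (GRCm38.p6) for 61 of the 82 genes. Sequence around the start differed from that of other genes in several motifs. CTTTCC on the sense strand within 50 bases of the start was present in 31.1% of the 61, against 5.43% of the 27025 genes with a window outside chromosome 18 and 5.28% of the 8643 measured in these libraries. CTTTTC in the same place was present in 14.8%, against 4.32% and 3.55%. In the window from 250 bases before to 50 after the start, on both strands, CCGGAAG was present in 41%, against 9.93% and 21.2%. The palindrome bound by ZBTB33 was present in 9.84%, against 0.525% and 1.16%. AAGATGGC was present in 9.84%, against 3.19% and 5.59%, and TATAAA in 11.5%, against 15.7% and 8.18%. CACGTG, the E-box of Myc, was present in 9.84%, against 8.09% and 12%, close to both references. A gene counted when any of its start sites had the letters, the matches are exact and short, and none shows binding. No window was used for the other 21 members.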

How the data were processed

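RNA of sorted LSK cells was measured in 4 libraries, 1 per group, with groups taken from the sample titles; the 2 bisulfite samples were not analysed here. Per the labels, 100 ng of total RNA went into a total RNA library kit. Each gene has 1 deposited FPKM and a locus, per the file headers. Tools named in the submitters' processing notes include HISAT2 2.0.4, StringTie 1.3.0, and the build is mm10 (GRCm38). The sources used here do not say whether counting used strand.

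No file lists an FPKM below 0.5, and unlisted genes were set to 0.5. Of 14468 identifiers, 14382 matched a symbol table, and 18 symbols turned into dates were restored. Values were divided by median-of-ratios factors over 10935 genes (1.06 in WT and 0.981 in KO of young, 0.982 and 0.979 of old mice). Differences are of log2(scaled FPKM + 1), which understates those of low genes. A gene was measured at a scaled FPKM of 1 or more in either library.

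With 1 library per group no test was made, and p-values and SDs are not given. Members and list medians and counts are set beside those of all genes measured. Depth was read from FPKM times locus length of genes under 1500 bp: 61.8%, 62.2%, 71.6% and 68.1% of values lay within 0.02 steps of a whole multiple, where chance gives 4%. A counted unit was taken as 2 steps in young and 1 in old libraries, and such errors cover counting only.

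The members and lists were chosen with earlier results of these data known, as were the threshold of 0.32 and the rule for named genes. That rule took the paralogs and parents, the members past 2-fold, the 5 largest differences each way at a level of 5 or more in either library, the 5 highest and lowest, and 9 fixed genes. Chosen after these values were seen were both reference groups of genes with a short locus, the comparison of both old with both young libraries, the split at 3 pseudogenes, and the stretches printed, whose length and start were changed once after viewing. Promoter windows are those of RefSeq, without chromosome 18. The scaling and the 2-fold calls were tested on simulated data, with changes put into abundant genes only, and the other steps were not. All steps ran in Python 3.11.15 with pandas 2.3.3 and numpy 2.4.6. Some members and related genes are counted but not reported by name, including some that the rule names.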

Additional observations from a re-analysis of the deposited data

Results flagged for a closer look

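Rps26 and Rpl36 had KO minus WT differences of opposite sign at the 2 ages, both past 0.32. They make up 2.47% of the 81 members measured at both ages, near the 2.27% of all genes that were lower in young KO and higher in old KO. For Rps26 the difference was -0.45 in young and 0.86 in old cells, and for Rpl36 it was -0.61 and 0.69. The difference between the ages was not tested, with 1 library per group. The listed copies Rps26-ps1 (-0.22 and 0.68) and Rpl36-ps3 (-0.63 and 0.56) had the same signs as their parents, and reads shared between copy and parent were not separated.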

How the results depend on the processing

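Of 320 alternative values, 288 kept their sign and size class, 27 moved by at least 0.1 (a median or gap), over 1.5 times (a count) or over 1.1 times (a share), and 5 reversed. Many of the 288 could not have changed. All 82 members were listed in all 4 libraries, so limiting to such members or setting unlisted genes to 0 left them as they were. The 82 members fill 82 rows, so taking the highest row of a symbol could act only through the scaling. Paralog shares, 40 of the values, were varied only by unlisted genes at 0 and by the highest row. No library could be left out, with 1 per group. No paired analysis was possible because each group has 1 library and no replicate number. With FPKM as deposited, the median of all genes itself shifted by -0.10 in young KO minus WT and -0.11 in old minus young WT. The members' median was then -0.06 in young KO minus WT, with 3 higher and 5 lower genes, and 0.37 in old minus young WT. Upper-quartile scaling gave 0.43 for old minus young KO, with all genes at -0.10. A pseudocount of 5 left 3 higher genes in young KO, 1 lower in old KO, 2 lower in old minus young WT and 2 in KO, and a subunit gap of -0.01 in old KO minus WT (0.01 as reported). At a scaled FPKM of 10 or more, 4 genes were higher in young KO and the subunit gap in old KO minus WT was -0.04. The same filter gave age medians of 0.62 in WT and 0.70 in KO, lower counts of 2 and 1, and an age gap between subunits of 0.00 in WT.

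Alternatives chosen after seeing the data gave the following. With copies summed into parents, the subunit gap in old KO minus WT was -0.00. Without members that have a listed copy, it was -0.05, the age gaps were 0.03 in WT and 0.06 in KO, and 1 gene was lower in young KO and 3 in old minus young WT. Leaving out members that overlap another listed gene moved no value past these limits. The alternatives for the share of summed FPKM, in contrast, were planned. The share was 4.99%, 5.26%, 4.65% and 6.61% without predicted genes, and 5.36% for old WT without antigen receptor segments. It was 5.13%, 5.42%, 7% and 7.25% without these and mitochondrially encoded genes. With 1 library per group and counting errors near 10% at a level of 10 in young cells, differences of low genes near 0.32 are not resolved.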
